A study of Mus musculus with 9 samples.

Results

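The genes described here are those of cholesterol and fatty acid synthesis, with the factors that switch them on and a few genes of fatty acid use. They were chosen by name from a list of 48 genes, and a gene was taken as measured where an array probe set carried its symbol and no other. This gave 34 measured genes of the 8251 genes named in this way on the array. The cholesterol branch held 16 of them, the fatty acid branch 9, fatty acid use 4, the regulators 4, and the last was Ggps1, a branch enzyme of isoprenoid synthesis. Where several probe sets measured a gene, the one with the highest average over the 9 arrays stood for it. The other 14 listed genes were not named on the annotated array and were not analysed here: Acat2, Pmvk, Acaca, Acacb, Acss2, Fads2, Fads3, Acsl1, Acsl3, Srebf2, Scap, Insig2, Nr1h2 and Soat1.

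The study asked how long-term clozapine, an atypical antipsychotic, and haloperidol, an older dopamine receptor blocker of the typical class, change forebrain gene expression. All animals were male C57BL mice, 4 weeks of age, kept singly, and the labels name no genetic change in any group. After 2 weeks of acclimatisation they drank water with clozapine at 12 mg/kg/day, with haloperidol at 1.6 mg/kg/day or with no drug for 4 weeks, so the drugs were given at different doses. Of 10 animals per treatment, 3 were measured, each on an Affymetrix U74Av2 array of its own, with unpooled total RNA. The titles place the tissue in the right forebrain and the tissue entry in the left hemisphere, so the side is not settled.

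Cholesterol is built from acetyl-CoA through mevalonate, isoprenoids and squalene to lanosterol, which is then trimmed to cholesterol, and fatty acids are built from the same acetyl-CoA by a separate set of enzymes. The brain makes nearly all of its own cholesterol, much of it for myelin in early life, because plasma lipoproteins do not cross the blood-brain barrier. When sterols in the endoplasmic reticulum run low, SREBP transcription factors are escorted by Scap to the Golgi, cut there and sent to the nucleus, where they raise genes of both branches. Insig proteins hold them back. In cultured cells antipsychotic drugs have been reported to raise SREBP target genes, and the arrays measured the same genes after oral treatment of the animal.

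SREBP proteins bind sterol regulatory elements beside sites for NF-Y, which reads CCAAT, and Sp1, which reads a GC box. The 250 bases before each transcription start were read from the RefSeq promoter table (GRCm38.p6), which held 28 of the 34 measured genes in 38 windows. A gene with several starts counted where any of its windows held the letters, which favours genes with more windows. The letters CCAAT stood on at least 1 strand in 24 of these 28, against 2632 of the 6576 array genes with an entry and 37.5% of all 27025 genes. The GC box GGGCGG, on either strand, stood in 22 of the 28, against 58.9% of array genes and 35.4% of all genes. Counted by window, CCAAT stood in 68.4% for the members and 34.6% for the array genes, and GGGCGG in 68.4% and 52.8%. All 13 cholesterol genes with an entry held CCAAT and all 13 held GGGCGG, and of 6 fatty acid genes 4 held CCAAT and 3 held GGGCGG. Of the 15 cholesterol windows 86.7% held CCAAT and 93.3% held GGGCGG, and of the 8 fatty acid windows 50% held each. The classic sterol element TCACNCCAC was in Hmgcs1 alone, against 1.44% of array genes. None of these letter strings contains another, and a match is a description of the sequence only.

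The promoters of 4 genes that the results return to are shown 5′ to 3′ on the gene's own strand. Hmgcs1 acts early in the pathway and is a textbook SREBP target, Lss and Insig1 had low p-values in the haloperidol group, and Fasn stands for the fatty acid branch. Capitals mark TCACNCCAC and CCAAT, which reads ATTGG where it lies on the opposite strand.
Hmgcs1, chr13:119690101-119690350, plus strand: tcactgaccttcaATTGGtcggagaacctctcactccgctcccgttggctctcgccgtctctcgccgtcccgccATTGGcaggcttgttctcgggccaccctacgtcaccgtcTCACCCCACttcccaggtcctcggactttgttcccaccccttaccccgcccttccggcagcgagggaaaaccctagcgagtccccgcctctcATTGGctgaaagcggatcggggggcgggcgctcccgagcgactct
Lss, chr10:76531355-76531604, plus strand: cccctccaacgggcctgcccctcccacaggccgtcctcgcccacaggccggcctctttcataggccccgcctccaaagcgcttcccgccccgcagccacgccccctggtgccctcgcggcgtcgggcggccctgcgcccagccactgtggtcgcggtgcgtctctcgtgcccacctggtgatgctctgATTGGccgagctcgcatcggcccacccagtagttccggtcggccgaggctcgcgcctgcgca
Insig1, chr5:28071162-28071411, plus strand: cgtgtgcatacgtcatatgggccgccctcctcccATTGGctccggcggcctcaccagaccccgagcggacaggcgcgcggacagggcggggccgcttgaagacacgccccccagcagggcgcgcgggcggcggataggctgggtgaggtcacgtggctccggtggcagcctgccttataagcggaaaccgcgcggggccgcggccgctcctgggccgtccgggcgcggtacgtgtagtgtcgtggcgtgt
Fasn, chr11:120824548-120824797, minus strand: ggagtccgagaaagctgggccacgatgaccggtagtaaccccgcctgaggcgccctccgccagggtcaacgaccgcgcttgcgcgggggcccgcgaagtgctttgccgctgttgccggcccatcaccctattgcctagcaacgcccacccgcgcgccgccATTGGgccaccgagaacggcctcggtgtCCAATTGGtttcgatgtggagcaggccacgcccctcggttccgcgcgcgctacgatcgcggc
Hmgcs1 carried 3 CCAAT matches and 1 sterol element, Lss and Insig1 carried 1 CCAAT each, and Fasn carried 3, of which 2 share bases in a palindrome. Hmgcs1 and Lss each held 2 GC boxes and Insig1 held 3, while the Fasn window held 0.

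Values are log2 values made with GCRMA, so a difference of 1 is a 2-fold change. Of the 34 genes, 30 lay above the filter on low values, a 9-array average of 3.448, and entered the tests. The 4 below it were Mvd (2.65 to 2.77), the mevalonate diphosphate decarboxylase, Hsd17b7 (3.27 to 3.58), a sterol ketone reductase, Elovl1 (2.04 to 2.23), an elongase of very long chains, and Pparg (2.65 to 2.89), a fat cell transcription factor. They entered no test. Per-array medians over all probe sets were 4.01 to 4.21.

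None of the 30 tested genes differed between treatments by limma with Benjamini-Hochberg adjustment over all 7453 probe sets tested. In each of the 3 comparisons, and in the moderated F test over the 3 treatments, 0 of 30 passed an adjusted p of 0.05, beside 0% of all probe sets. At an unadjusted p under 0.05 the clozapine group differed from control in 0 of 30, beside 0.939% of all probe sets tested (0.443% above and 0.496% below). The haloperidol group differed at that level in 3 of 30, beside 9.12%: Sqle above control, beside 2.05% above, and Lss and Insig1 below, beside 7.07% below. Clozapine and haloperidol differed in 1 of 30, beside 3.64%. This was Lss, higher under clozapine, beside 2.98% higher and 0.657% lower. The F test gave 0 of 30, beside 3.37%, with its lowest unadjusted p, 0.0518, at Lss. The lowest adjusted p among the 30 was 1 for clozapine, 0.53 for haloperidol and 0.915 for the drugs against each other. An exact test of 3 arrays against 3 could not have gone below a two-sided p of 0.1.

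The 3 arrays of a drug lay wholly to 1 side of the 3 controls for 1 gene under clozapine (Cpt1a, below), beside 3.43% of all probe sets, 2.16% below. Under haloperidol this held for 4 genes, beside 21.7%: 1 above control (Sqle), beside 2.29%, and 3 below (Lss, Insig1 and Nr1h3), beside 19.4%. Between the drugs the same 4 stood apart, beside 17.1%, with 3 higher under clozapine (Lss, Insig1 and Nr1h3), beside 15.2%, and 1 lower (Sqle), beside 1.96%. All 3 comparisons use shared arrays, so these counts are not independent of each other. No member differed by more than 1.5-fold in any comparison by the probe set taken for it, while other probe sets of Nsdhl and Sc5d did, as given with those genes.

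**Figure D1:**
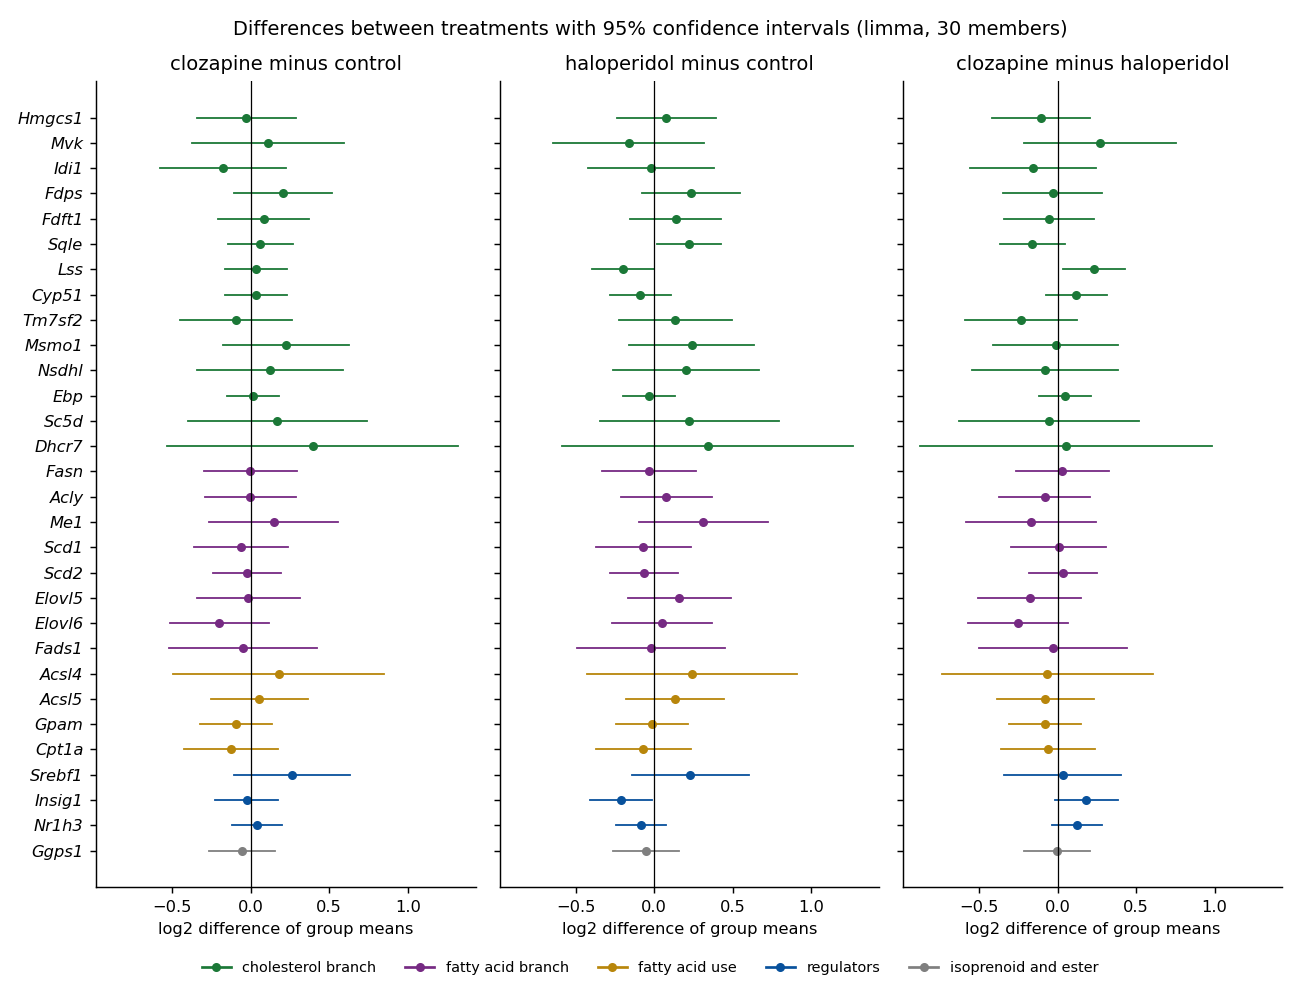
Differences of group means for the 30 tested genes in log2 units (x axis; points), with 95% confidence intervals from limma (lines), for each drug against control and for the drugs against each other. Nearly all intervals cross 0, and the exceptions are Sqle, Lss and Insig1 for haloperidol against control and Lss for clozapine against haloperidol.

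The intervals show how large a change these arrays leave room for. The 95% interval reached a median of 0.312 log2 units to each side of the difference, from 0.159 to 0.927. Against control it lay within 1.5-fold in both directions for 23 of 30 genes under clozapine and for 22 under haloperidol. It lay within 2-fold for 29 of 30 under each drug, the exception being Dhcr7. Between the drugs 25 of 30 lay within 1.5-fold and all 30 within 2-fold. A change within these bounds is not excluded by the arrays. These counts hold for the probe set taken for each gene. Intervals of other probe sets went past 2-fold for Nsdhl, Sc5d and Scd1 under both drugs and for Ggps1 under haloperidol. Under haloperidol they reached 1.99 for Nsdhl, 1.29 for Sc5d, 1.09 for Ggps1 and -1.12 for Scd1. Between the drugs those of Nsdhl reached -1.37.

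In the clozapine group more cholesterol genes lay above control than below, and in the fatty acid branch more lay below. Of the 14 tested cholesterol genes 11 lay above control and 3 below, with a median difference of 0.072 and a range of -0.18 to 0.39, while over all probe sets tested 49.5% lay above and the median was -0.001. Of the 8 tested fatty acid genes 1 lay above and 7 below, with a median of -0.020, but without clozapine 3 the order turned, with 7 above, 1 below and a median of 0.032, and without clozapine 2 there were 4 on each side. In neither branch did the clozapine arrays of any tested gene stand clear of the controls. The cholesterol median was 0.038 after each array was centred on its own median and 0.032 without control 2, where 9 genes lay above and 5 below.

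In the haloperidol group 9 of the 14 cholesterol genes lay above control and 5 below, with a median of 0.137, while over all probe sets tested 46.4% lay above and the median was -0.018. That median was 0.031 without control 3 and 0.055 without control 2, each time with 8 genes above and 6 below, 0.101 without control 1 and 0.097 without haloperidol 3. It was 0.090 after centring. The fatty acid branch had 4 genes above and 4 below, with a median of 0.015, which was -0.032 after centring and -0.020 after quantile normalisation. Between clozapine and haloperidol 5 cholesterol genes were higher under clozapine and 9 lower (median -0.042), which turned to 8 higher and 6 lower without clozapine 3 (median 0.022), and 3 fatty acid genes were higher and 5 lower (median -0.054). Over all probe sets tested 56.4% were higher under clozapine and the median was 0.026.

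The controls differed among themselves in a measure of RNA integrity, the gap in log2 units between 3′ and 5′ probe sets of the array's control transcripts. It was 0.882, 1.46 and 1.73 in controls 1, 2 and 3, 0.892, 1.13 and 1.14 under clozapine and 1.30, 0.868 and 0.814 under haloperidol, so the widest gaps were in the group that every drug value is set against. Control 3, the widest, was the lowest of the 9 arrays for the tested genes Nsdhl, Dhcr7, Sqle, Fasn and Fads1. It was the highest for Hmgcs1, Ebp, Scd1, Elovl6 and Acsl5. The part of RNA integrity in the branch values was not tested.

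**Figure D2:**
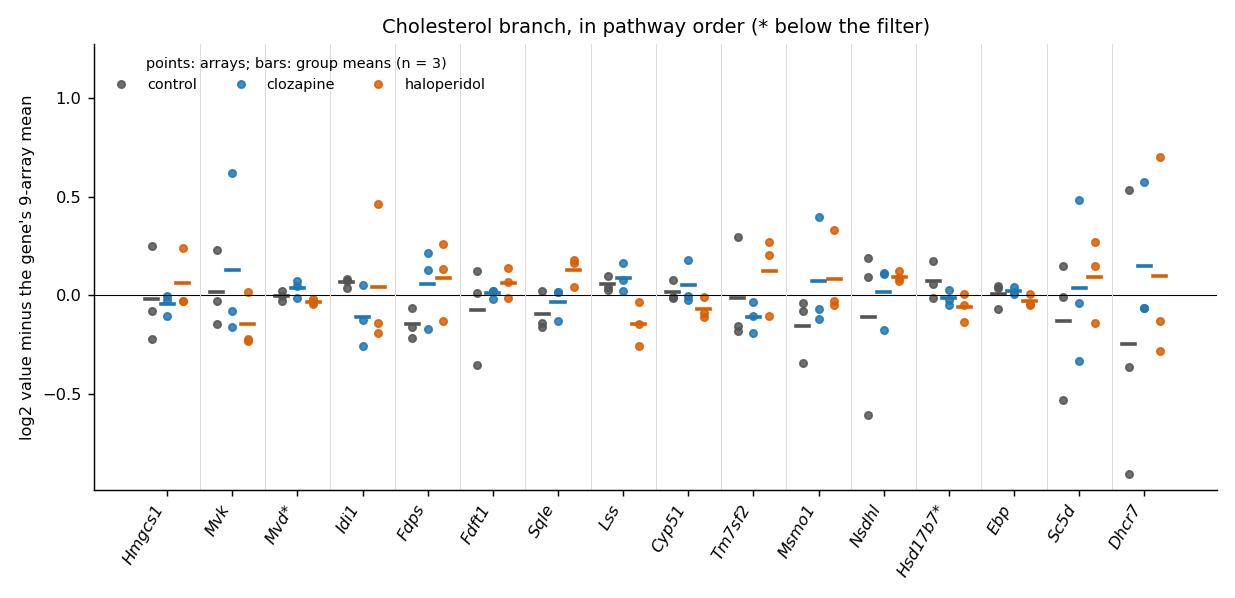
Log2 value of each cholesterol gene on each array minus that gene's 9-array mean (y axis), in pathway order (x axis), with points for arrays and bars for the means of 3 control, 3 clozapine and 3 haloperidol arrays. The points of the 3 treatments overlap for every tested gene except Sqle and Lss under haloperidol, and Dhcr7 has the widest spread, from 5.35 to 6.96.

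The cholesterol genes are taken here in pathway order, with values in the order of replicates 1, 2 and 3. Hmgcs1, the synthase that makes HMG-CoA, read 10.03, 10.18 and 10.51 in the controls, 10.23, 10.25 and 10.15 under clozapine and 10.50, 10.23 and 10.23 under haloperidol. The controls alone spanned the values of both drug groups. The difference from control was -0.03 ± 0.14 (SE; 95% interval -0.34 to 0.29) for clozapine and 0.08 (-0.24 to 0.39) for haloperidol, and without control 3 these were 0.11 and 0.21. Mvk, the mevalonate kinase, differed by 0.11 and -0.16 close to the filter, and its highest value was 4.53 in clozapine 3. Without that array the Mvk clozapine difference was -0.14, and a second Mvk probe set past the filter gave -0.02 and -0.005. Idi1, the isopentenyl diphosphate isomerase, differed by -0.18 ± 0.17 and -0.02, and haloperidol 1 stood above the other 8 arrays at 9.10.

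Fdps, the farnesyl diphosphate synthase, read 7.90, 7.75 and 7.80 in the controls (mean 7.81 ± 0.08, SD, n = 3), 8.09, 8.18 and 7.79 under clozapine and 7.83, 8.22 and 8.09 under haloperidol. In each drug group 2 arrays stood above all controls and the other lay among them. Its differences were 0.21 ± 0.14 for clozapine (limma unadjusted p = 0.17) and 0.24 for haloperidol (unadjusted p = 0.121), and a further probe set past the filter gave 0.28 and 0.34. In that probe set control 3 alone was low, at 6.95, and without it the differences were -0.005 and 0.05. Fdft1, the squalene synthase, read 8.15, 7.79 and 8.27 in the controls, 8.17, 8.17 and 8.12 under clozapine and 8.13, 8.21 and 8.28 under haloperidol. Control 2 alone was low, and both drug groups otherwise matched the other two controls, with differences of 0.08 ± 0.12 and 0.14.

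Sqle, the squalene epoxidase, read 7.89, 7.72 and 7.70 in the controls, 7.88, 7.88 and 7.73 under clozapine and 8.04, 7.91 and 8.03 under haloperidol. Every haloperidol array lay above every control and every clozapine array, though haloperidol 2 exceeded control 1 by a small margin. The haloperidol mean was 7.99 ± 0.07 against 7.77 ± 0.10 (SD, n = 3), a 1.17-fold difference of 0.22 ± 0.09 (SE; 95% interval 0.02 to 0.43; limma unadjusted p = 0.0376, adjusted p = 0.53). The clozapine difference was 0.06 (-0.14 to 0.27), and clozapine minus haloperidol was -0.16 (-0.37 to 0.05). Of 4 equal bands of probe sets by average signal, Sqle lay in the highest, where 3.6% of probe sets lay above control at an unadjusted p under 0.05. Without control 3 the Sqle difference was 0.188 and the unadjusted p 0.1085.

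Lss, the lanosterol synthase, read 4.90, 4.91 and 4.96 in the controls, 4.89, 5.03 and 4.95 under clozapine and 4.61, 4.83 and 4.72 under haloperidol. All haloperidol values were the lowest of the 9, and the clozapine values spread around the controls. Haloperidol minus control was -0.20 ± 0.09 (limma unadjusted p = 0.047, adjusted p = 0.53), and clozapine minus haloperidol was 0.23 ± 0.09 (0.04 to 0.43; unadjusted p = 0.0255, adjusted p = 0.915). Thus Sqle and Lss, which act in succession, lay on opposite sides of control under haloperidol. The next enzyme, Cyp51, which removes a methyl group from lanosterol, read 5.74, 5.73 and 5.82 in the controls, 5.72, 5.92 and 5.74 under clozapine and 5.63, 5.65 and 5.74 under haloperidol. Its groups overlapped, with differences of 0.03 and -0.09.

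The lowest signals as a whole lay below control in the haloperidol arrays, and Insig1 and Nr1h3 are among them. In the lowest of the 4 signal bands, which holds Insig1, Nr1h3, Mvk and Tm7sf2, the median haloperidol difference was -0.134. There 58.0% of probe sets had all haloperidol arrays below all controls. In the second band, which holds Lss, these were -0.002 and 12.7%. In the upper bands, which hold 5 and 15 of the 30 genes, the medians were 0.045 and 0.041. Of the other members in the lowest band, Tm7sf2 differed by 0.14 and Mvk by -0.16 under haloperidol, and both overlapped the controls. The part of this low-signal shift in the Insig1 and Nr1h3 values was not tested.

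The later sterol enzymes showed no separation of treatments. Msmo1, the sterol methyl oxidase, read 8.84, 8.58 and 8.89 in the controls, 8.81, 9.32 and 8.86 under clozapine and 8.88, 9.25 and 8.89 under haloperidol. In each drug group 1 array, replicate 2, was high and the others were level with the controls. The clozapine difference of 0.23 ± 0.17 (limma unadjusted p = 0.23) was 0.06 without clozapine 2, and the haloperidol difference was 0.24. Tm7sf2, a sterol reductase, differed by -0.10 and 0.14, and Ebp, the sterol isomerase, by 0.01 and -0.03 with values from 5.44 to 5.55 on all 9 arrays.

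Nsdhl, a sterol dehydrogenase, and Sc5d, the sterol desaturase, gave different sizes by probe set. The probe set taken for Nsdhl differed by 0.12 and 0.20, with control 3 at 5.03 and the other 8 arrays at 5.46 to 5.83, and without control 3 it differed by -0.13 and -0.05. Against this the other two gave 0.51 and 0.71 for clozapine and 0.86 each for haloperidol. In 1 of those, control 3 read 2.93 while the other 8 arrays read 4.26 to 5.36, and without it the differences were 0.15 and 0.30. In the remaining one they were 0.53 and 0.88 without control 3. Sc5d differed by 0.17 and 0.22, and its second probe set by 0.38 and 0.65.

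Dhcr7, the reductase that completes cholesterol, read 6.79, 5.89 and 5.35 in the controls, 6.83, 6.19 and 6.19 under clozapine and 5.97, 6.13 and 6.96 under haloperidol. Its 3 highest values came from 1 array of each treatment, control 1, clozapine 1 and haloperidol 3, and the groups overlapped throughout. The difference was 0.39 ± 0.40 (-0.53 to 1.32) for clozapine and 0.34 (-0.59 to 1.27) for haloperidol. Without control 3 these were 0.06 and 0.01, and without control 1 they were 0.79 and 0.73. Without haloperidol 3 the haloperidol difference was 0.04, and without clozapine 1 the clozapine difference was 0.18. The 3′ to 5′ gap was 0.882, 0.892 and 0.814 on the 3 arrays with high Dhcr7 and 1.73 on control 3, where Dhcr7 was lowest. Haloperidol 2 departed from this order, with a gap of 0.868 and a Dhcr7 value of 6.13, and the part of RNA integrity in the Dhcr7 values was not tested.

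**Figure D3:**
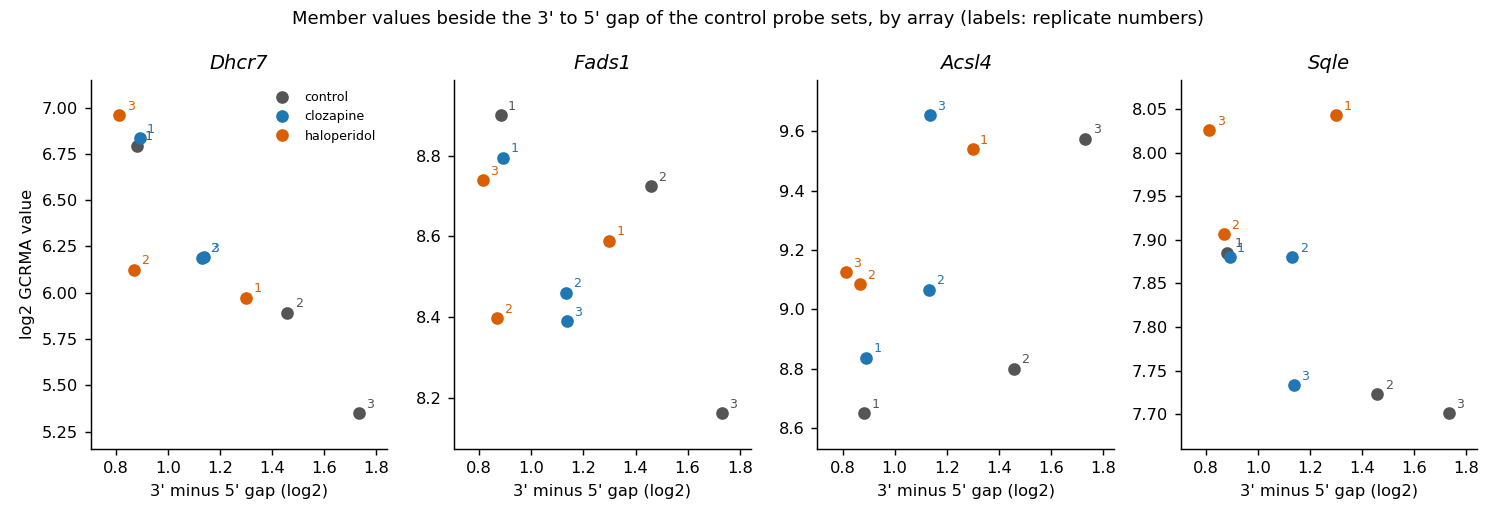
Log2 values of Dhcr7, Fads1, Acsl4 and Sqle (y axes) beside the 3′ minus 5′ gap of the control probe sets in log2 units (x axis), 1 point per array, numbered by replicate. Dhcr7 and Fads1 were lowest on control 3, the array with the widest gap, 1.73, and the Acsl4 values of clozapine 3, haloperidol 1 and control 3 stand above those of the other 6 arrays.

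In the fatty acid branch the treatments overlapped in every tested gene. Fasn, the fatty acid synthase, read 9.15, 9.13 and 8.82 in the controls, 9.13, 8.99 and 8.98 under clozapine and 8.87, 9.22 and 8.92 under haloperidol. The groups overlapped fully, with differences of -0.002 (-0.30 to 0.29) and -0.03 (-0.33 to 0.26). Acly, which supplies cytosolic acetyl-CoA to both branches, read 10.14, 10.03 and 10.20 in the controls, 10.16, 10.11 and 10.10 under clozapine and 10.47, 9.98 and 10.16 under haloperidol. Haloperidol 1 was the highest array and haloperidol 2 the lowest, and the differences were -0.003 and 0.08.

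Me1, the malic enzyme that supplies NADPH, had the largest difference of the branch. It read 8.04, 7.86 and 7.91 in the controls, 8.19, 7.88 and 8.18 under clozapine and 8.53, 7.85 and 8.37 under haloperidol. Haloperidol 1 and 3 stood above the other 7 arrays and haloperidol 2 was the lowest of all 9. The haloperidol difference of 0.31 ± 0.18 (-0.10 to 0.73; limma unadjusted p = 0.117) was 0.174 without haloperidol 1 and 0.514 without haloperidol 2. The clozapine difference was 0.15.

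**Figure D4:**
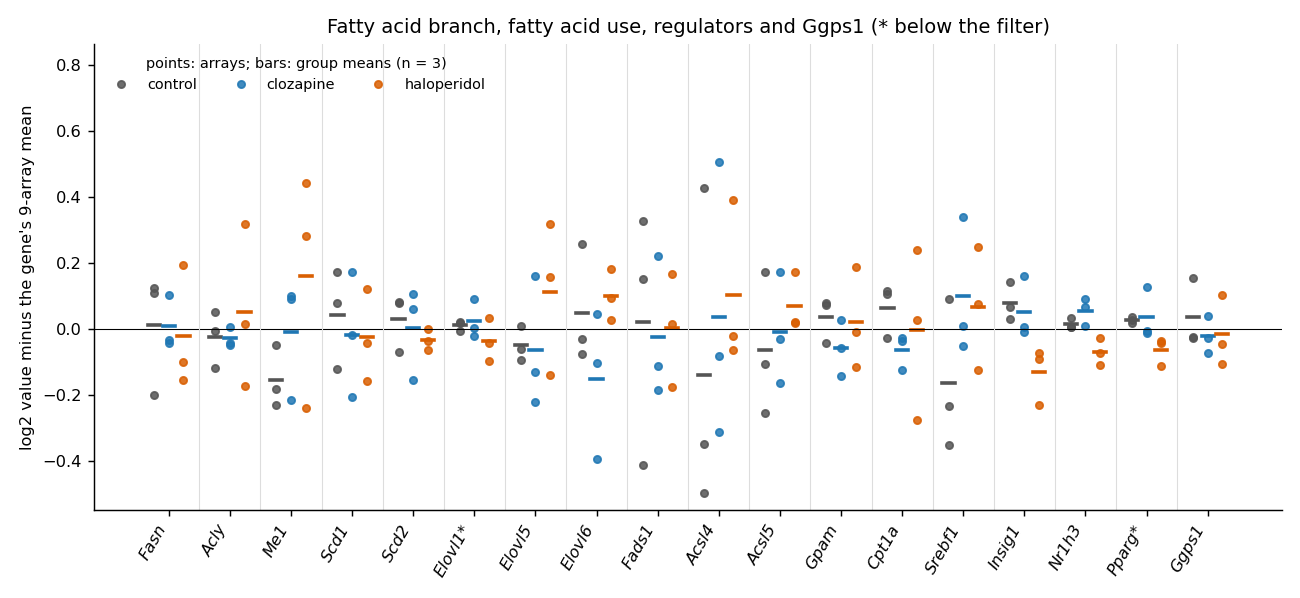
Log2 value of each fatty acid branch gene, fatty acid use gene, regulator and Ggps1 on each array minus the gene's 9-array mean (y axis), with points for arrays and bars for means of 3 arrays per treatment. Of the tested genes, the 3 haloperidol arrays lie wholly below the controls for Insig1 and Nr1h3, and the 3 clozapine arrays for Cpt1a.

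The desaturases place the double bonds of membrane lipids. Scd1 read 8.97, 9.17 and 9.26 in the controls, 9.26, 9.07 and 8.88 under clozapine and 9.21, 8.93 and 9.05 under haloperidol, with differences of -0.06 and -0.07. Scd2, the main brain form, read 12.49, 12.33 and 12.49 in the controls, 12.47, 12.51 and 12.25 under clozapine and 12.37, 12.41 and 12.34 under haloperidol. Its intervals, -0.24 to 0.19 and -0.28 to 0.15, were the narrowest of the tested fatty acid branch by the probe sets taken. Those of the second Scd2 probe set were wider, -0.48 to 0.47 and -0.56 to 0.39. A further Scd1 probe set gave -0.49 (limma unadjusted p = 0.077) and -0.56 (unadjusted p = 0.049), with controls at 6.54, 6.68 and 6.16, and the remaining one gave -0.23 and -0.30. Without control 3 the probe set taken for Scd1 differed by 0.003 and -0.004. Fads1, a front-end desaturase of polyunsaturated chains, differed by -0.05 and -0.02, with control 3 the lowest array at 8.16. Without control 3 it differed by -0.26 and -0.24, and without control 1 by 0.11 and 0.13.

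Of the elongases, Elovl6, which extends palmitate, read 6.31, 6.36 and 6.65 in the controls, 6.44, 5.99 and 6.29 under clozapine and 6.42, 6.57 and 6.48 under haloperidol. Clozapine 2 was the lowest array, and without it the clozapine difference of -0.20 ± 0.14 (limma unadjusted p = 0.185) was -0.077. Clozapine minus haloperidol was -0.25 (unadjusted p = 0.106), and the other probe set gave -0.02 and 0.21 against control. Elovl5, which extends polyunsaturated chains, differed by -0.01 and 0.16.

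Among the genes of fatty acid use, the acyl-CoA synthetases Acsl4 and Acsl5 had a high animal in each treatment. Acsl4, which favours arachidonic acid, read 9.65 in clozapine 3, 9.54 in haloperidol 1 and 9.57 in control 3, and 8.65 to 9.13 on the other 6 arrays. Acsl5 was highest on the same 3 arrays, at 8.11 on each, and 7.68 to 7.96 elsewhere. Their differences from control were 0.18 and 0.05 for clozapine and 0.24 and 0.13 for haloperidol. Without control 3 the Acsl4 differences were 0.46 and 0.52, and those of Acsl5 0.17 and 0.25. The second Acsl4 probe set gave -0.08 and -0.16.

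Cpt1a, which admits fatty acids to mitochondria for burning, read 6.39, 6.53 and 6.53 in the controls, 6.39, 6.30 and 6.38 under clozapine and 6.66, 6.14 and 6.45 under haloperidol. All clozapine arrays were below all controls, by less than the rounding at the nearest pair, and the difference of -0.13 ± 0.13 (limma unadjusted p = 0.356) was no larger than its error. Gpam, the first acyltransferase of triglyceride synthesis, differed by -0.09 and -0.01. Ggps1, which makes geranylgeranyl diphosphate, differed by -0.05 under each drug, and its other probe set by 0.24 and 0.41.

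Of the regulators, Srebf1, which encodes SREBP-1, had the lowest clozapine p of the 30. It read 5.87, 6.31 and 5.99 in the controls (mean 6.06 ± 0.23, SD, n = 3), 6.56, 6.23 and 6.17 under clozapine (6.32 ± 0.21) and 6.10, 6.47 and 6.30 under haloperidol (6.29 ± 0.19). Control 2 lay within both drug groups, while controls 1 and 3 lay below all 6 treated arrays. The clozapine difference was 0.26 ± 0.16 (-0.11 to 0.63; limma unadjusted p = 0.141, adjusted p = 1) and the haloperidol difference 0.23 (-0.14 to 0.60). It was 0.391 for clozapine without control 2 and 0.143 without clozapine 1, and 0.035 with arrays weighted by their fit.

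Insig1, the sterol sensor that retains SREBP and is itself an SREBP target, read 3.74, 3.85 and 3.78 in the controls, 3.70, 3.87 and 3.72 under clozapine and 3.62, 3.64 and 3.48 under haloperidol. The haloperidol arrays were the lowest of the 9 and the clozapine arrays overlapped the controls. The haloperidol difference was -0.21 ± 0.09 (limma unadjusted p = 0.0403, adjusted p = 0.53), -0.161 without haloperidol 3 and -0.093 after quantile normalisation. Clozapine minus haloperidol was 0.18 (limma unadjusted p = 0.0655). Nr1h3, the sterol receptor LXR alpha, read 3.62, 3.62 and 3.65 in the controls, 3.62, 3.70 and 3.68 under clozapine and 3.59, 3.50 and 3.54 under haloperidol. Its haloperidol arrays were also lowest, with a difference of -0.08, and clozapine minus haloperidol moved from 0.13 to 0.01 after quantile normalisation.

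The members varied between animals about as much as other genes did. The median residual SD was 0.168 over the 30 genes and 0.196 over all probe sets tested. Differences between the treatment means made up a median of 17.7% and 18.4% of the variance. Means of so few animals differ even where a treatment does nothing, so this share does not measure an effect of treatment. Pairs of cholesterol genes showed no common direction from animal to animal within treatments. Over 91 pairs the median correlation of residuals across 9 arrays was -0.013, over 28 fatty acid pairs it was 0.042, and over all pairs of tested probe sets it was 0.003. These are descriptions of the same 9 arrays, with no test.

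A wider list of 35 genes of sterol and fatty acid handling (uptake, transport, storage and receptors) had 24 measured and 19 tested genes, and 0 of 19 passed the adjusted p in either drug, beside 0% of all probe sets. Of the 19, 7 lay above control and 12 below under clozapine (median -0.045), and 10 above and 9 below under haloperidol (median 0.020), beside 49.5% and 46.4% of all probe sets above. Stard3, a cholesterol-binding protein of late endosomes, read 6.69, 6.69 and 6.47 in the controls, 6.27, 6.35 and 6.47 under clozapine and 6.41, 6.41 and 6.22 under haloperidol. It was the 1 gene of the 19 at an unadjusted p under 0.05 for clozapine, beside 0.939% of all probe sets and 0.496% below, at -0.25 ± 0.10 (limma unadjusted p = 0.0383), and it differed by -0.27 for haloperidol (unadjusted p = 0.0287). Its second probe set gave 0.02 and -0.05 and overlapped control under both drugs. Under haloperidol 2 of the 19, Stard3 and Rxrb, lay below control at that level, beside 9.12% and 7.07% below.

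Rxrb, a retinoid X receptor that pairs with LXR, read 6.17, 6.42 and 6.11 in the controls, 6.01, 6.02 and 6.06 under clozapine and 5.83, 6.05 and 6.04 under haloperidol. All treated arrays lay below all controls. It differed by -0.20 (limma unadjusted p = 0.0965) and -0.26 (unadjusted p = 0.0414), with control 2 the highest array. Osbp, an oxysterol-binding protein, read 6.95, 7.03 and 6.97 in the controls, 6.90, 6.84 and 6.92 under clozapine and 6.87, 6.95 and 6.77 under haloperidol, again with every treated array below the controls, the nearest pair by less than the rounding. It differed by -0.09 and -0.12 (limma unadjusted p = 0.153). Of the 19 handling genes, 3 lay wholly below control under each drug: Stard3, Rxrb and Osbp. This stood beside 2.16% of all probe sets below under clozapine and 19.4% under haloperidol. For Stard3 under clozapine the nearest pair, clozapine 3 and control 3, was apart by less than the rounding. Fabp7, the fatty acid carrier of astrocytes, read 9.73, 10.53 and 10.74 in the controls, 10.61, 8.78 and 9.33 under clozapine and 10.99, 10.44 and 10.34 under haloperidol. The low values in clozapine 2 and 3 gave a difference of -0.76 ± 0.47 (limma unadjusted p = 0.143).

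In these bulk samples fewer cells of a type and less RNA per cell cannot be told apart, and oligodendrocytes and astrocytes make much of the brain's sterol. The summed linear level of 9 measured myelin markers, 8 of them past the filter, ranged over 9179 to 10399 in controls, 8938 to 10917 under clozapine and 8198 to 9383 under haloperidol. For 8 astrocyte markers it was 6165 to 8985, 6469 to 7591 and 5733 to 6958, and for 9 neuron markers 15915 to 20298, 17360 to 21116 and 20204 to 21162. The ranges of these 3 lists overlapped between every pair of treatments. Those of 8 endothelial markers, 7 of them past the filter, did not overlap between control and either drug. They were 371 to 449 in controls, 284 to 367 under clozapine and 301 to 364 under haloperidol. The single markers did not share 1 direction. Clozapine and haloperidol differences were -0.79 and -0.52 for Cldn5, -0.17 and -0.27 for Pecam1, and -0.19 and -0.27 for Tie1. For Flt1 they were -0.10 and -0.07, for Cdh5 0.04 and -0.27, and for Tek 0.04 and -0.02. For Kdr they were 0.02 and -0.04, and for Vwf 0.003 and 0.19. The part of these marker lists in the members' values was not tested. Pituitary hormone markers reached 11077 in haloperidol 3 and 37.2 to 43.3 on the other arrays, and their part in the haloperidol values was not tested. Without haloperidol 3 the haloperidol median of the cholesterol branch was 0.097 and Sqle lay 0.205 above control.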

How the data were processed

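Per the submitters' processing notes, GCRMA gave the deposited log2 values. Its version and the probe set definition are not given in the sources used here. GCRMA corrects background by probe sequence, normalises arrays to each other and summarises probe sets, and it compresses unexpressed probe sets toward a narrow floor. Groups and replicate numbers came from the sample titles. Of 12488 probe sets, 66 controls were left out, and 7453 of 12422 had an average above the 40th percentile (3.448). Names came from the platform annotation, and all 34 measured symbols matched RefSeq through Entrez identifiers. Probe sets with the suffix f can also detect related sequences, which applies to those taken for Mvk, Fdps, Sc5d and Ggps1.

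Treatment means were estimated from the 9 arrays together in limma 3.58.1 (R 4.3.3; 6 residual and 2.03 prior degrees of freedom), with two-sided tests and Benjamini-Hochberg adjustment over 7453 probe sets. The fit was tested on simulated data for clozapine against control, with 7453 probe sets, of which 50 were shifted by each size tried. It called 36% of shifts of 0.5 log2 units and 68% of shifts of 1, with 10 false calls among unshifted probe sets. In the real arrays this comparison called 0 probe sets, and a single shared direction took up 50.1% of the variation. Whether the simulated rates hold for such arrays was not tested, so they set no detection limit here. The number of arrays limits the precision. The members and lists were chosen with earlier results of these data known. The genes given in all 9 arrays were fixed control points of the pathway and the 4 members with the lowest unadjusted p in each comparison, with 3 handling genes per drug; Acsl4, Acsl5 and Cpt1a were added after their values were seen. Alternatives changed the filter, floor, centring, normalisation, variance model, array weights, replicate block, arrays fitted, probe set rule and each array in turn.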

Additional observations from a re-analysis of the deposited data

How the results depend on the processing

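Under 20 other settings, 19 planned and 1 chosen after seeing the data (without control 3 and haloperidol 3), 0 members passed the adjusted p of 0.05 in every comparison where the setting was run. Over all probe sets, 0 were also called with no filter, the 60th percentile filter, the floor on low values and the arrays centred. For the other settings the share of all probe sets called is not given here. The lowest adjusted p among members over all settings, by limma, was 0.263 for clozapine (Fdft1), 0.0711 for haloperidol (Insig1) and 0.282 between the drugs. Branch medians moved more. The haloperidol cholesterol median of 0.137 was 0.203 with the filter at the 60th percentile, 0.0896 with arrays centred, 0.0338 without control 3 and haloperidol 3, and 0.0311 to 0.155 with 1 array left out. The clozapine cholesterol median of 0.0723 was 0.0376 with arrays centred and 0.0323 to 0.0726 with 1 array left out. Between the drugs the cholesterol median ran from -0.0705 (without clozapine 2) to 0.0215 (without clozapine 3) and the fatty acid median from -0.155 (without haloperidol 2) to -0.00888 (without clozapine 3). The clozapine fatty acid median ran from -0.0907 (without clozapine 1) to 0.0324 (without clozapine 3). The cause of these shifts was not tested. The sign of the difference was the same in all settings for 11 of 30 members under clozapine, 14 under haloperidol and 14 between the drugs. Several settings could not change a member's difference, so agreement there was fixed in advance. These were the filters, the floor, the variance model, the replicate block and the fit of only the arrays compared. Leaving out an array of the group not compared could not change it either.

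The titles state no pairing of arrays by replicate number. Same-numbered arrays correlated from -0.597 to 0.697 in their deviations from group means. Differently numbered arrays were not compared, so these values cannot show whether the numbers pair the arrays. With the replicate block 0 members were called; in this balanced design a block cannot move the medians.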
